A study of Homo sapiens with 12 samples.

Results

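TSC22D3, FKBP5, PER1, ZBTB16 and SGK1 are classical glucocorticoid (GC) target genes, which many cell types induce when the hormone binds its receptor. They were chosen by gene symbol for that textbook role, with earlier results of these data known, and they are 5 of the 43735 genes in the count table. Their transcripts were measured by RNA sequencing of 12 multiple myeloma cultures, from the cell lines MM1S and MM1R, with 3 cultures in each of 4 groups. No GC was added to any of the cultures. The authors grew the lines in medium with fetal bovine serum, whose GC content is not given. The levels thus describe the 5 genes in that medium, untreated and after the plant steroidal lactone withaferin A (WA), and not a state known to lack hormone.

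The 4 groups were untreated MM1S, MM1S with WA, untreated MM1R and MM1R with WA. MM1S is described as GC sensitive and MM1R as GC resistant, and both lines were derived from the same multiple myeloma patient. WA was given at 1 µM for 3 h, and the labels call the other cultures untreated without naming a vehicle. Replicates were cultures of passages 16, 22 and 23 for MM1S and of passages 4, 6 and 7 for MM1R, and each passage supplied an untreated and a WA culture. The lines share no passage number, so line and passage cannot be told apart, and each line stands for 1 established culture rather than for a class of tumors. The passages are separate samples by label, and p-values measure the spread between them.

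GCs act through the glucocorticoid receptor, encoded by NR3C1. Without hormone it is held in the cytoplasm by a chaperone complex of HSP90 and co-chaperones. After binding hormone it enters the nucleus and acts on genes through the glucocorticoid response element (GRE), a palindrome of short half-sites. TSC22D3 encodes GILZ, an anti-inflammatory leucine zipper protein, FKBP5 encodes a co-chaperone that lowers the hormone affinity of the receptor, PER1 is a circadian clock repressor, ZBTB16 encodes the transcription factor PLZF, and SGK1 is a kinase that regulates ion channels. GCs kill sensitive myeloma cells and are a standard part of the treatment of the disease.

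Sequences are shown before starts of TSC22D3, the member that passed the test with WA, and of PER1, whose levels in the lines did not overlap. The only exact match to the letters of the GRE found in or near the 5 genes is also shown. Whether any of these sequences bears on the levels was not tested. On GRCh37, TSC22D3 spans 106956451 to 107020572 of the minus strand of chromosome X and has 3 exons in its canonical transcript. RefSeq gives several start sites for it, and 2 of the 250-base windows before them are shown 5′ to 3′, one before a start near the 5′ end of the gene and one before a start within it. The second holds a match to the antioxidant response element TGACNNNGC, in capitals, that begins 50 bases before the start.
TSC22D3, chrX:107019219-107019468, minus strand: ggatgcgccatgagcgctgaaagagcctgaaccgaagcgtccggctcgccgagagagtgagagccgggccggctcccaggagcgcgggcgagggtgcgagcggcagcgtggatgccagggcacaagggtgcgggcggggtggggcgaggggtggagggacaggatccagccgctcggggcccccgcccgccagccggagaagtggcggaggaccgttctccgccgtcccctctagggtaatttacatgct
TSC22D3, chrX:106960293-106960542, minus strand: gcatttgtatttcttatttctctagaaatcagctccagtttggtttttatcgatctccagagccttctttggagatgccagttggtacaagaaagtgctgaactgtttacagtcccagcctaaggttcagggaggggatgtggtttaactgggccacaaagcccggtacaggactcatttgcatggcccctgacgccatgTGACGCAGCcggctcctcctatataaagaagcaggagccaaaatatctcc
PER1 spans 8043790 to 8059824 of the minus strand of chromosome 17 and has 23 exons in its canonical transcript. Its 1 RefSeq window lies before a start within that span. The window holds an E-box, CACGTG, the letters that clock proteins bind, at 173 bases before the start. A match to the antioxidant response element lies at 155 bases before it, both in capitals.
PER1, chr17:8055723-8055972, minus strand: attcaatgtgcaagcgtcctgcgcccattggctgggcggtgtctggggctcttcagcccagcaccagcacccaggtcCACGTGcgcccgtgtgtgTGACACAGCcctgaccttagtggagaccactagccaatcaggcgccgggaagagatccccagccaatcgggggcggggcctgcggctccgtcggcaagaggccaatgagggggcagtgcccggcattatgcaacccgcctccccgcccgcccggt
FKBP5 spans 35541362 to 35696360 of the minus strand of chromosome 6 with 11 exons. An intron of it holds the full GRE, read as AGAACA, any 3 bases and TGTTCT, with the half-sites in capitals.
FKBP5 intron, chr6:35569859-35569873, minus strand: AGAACAgggTGTTCT
It was the 1 match to these letters in the bodies of the 5 genes with 10000 bases on either side. No match was found in the same search of TSC22D3, PER1, ZBTB16 or SGK1. Only these exact letters were searched, so GREs that depart from them were not looked for. In RefSeq windows of 300 bases around 35116 gene starts, both strands read, the full GRE occurred in 0.00285%, the half-site AGAACA in 14.8%, the E-box in 7.26% and the antioxidant response element in 13.3%. These shares are for windows of that length and do not apply to the longer spans searched for the GRE. The heat shock element, read as GAA, any 2 bases, TTC, any 2 bases and GAA, occurred in 0.49% of windows. The cyclic AMP response element TGACGTCA occurred in 1.85%. Neither was found in the windows of TSC22D3, FKBP5, PER1 or SGK1. The table had 4 windows for TSC22D3, 2 for FKBP5, 1 for PER1 and 3 for SGK1. The half-site, which is also part of the full GRE, began at base 1 of a transcript start of FKBP5 and at base 6 of one of SGK1, the start itself being base 1, and a window of FKBP5 held an E-box. These are matches of letters only. The counts are per gene, so which start site was used was not measured. No window for ZBTB16 was available here.

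Total counts per culture ranged from 17625110 to 19368343, and 14085 genes had enough reads to be tested. Levels are given as CPM, the reads of a gene scaled to the size of its library after TMM normalization. All cultures carried plasma cell transcripts, where 10 of 10 plasma cell markers were detected at a summed level of 10300 to 19200 CPM, while the B-cell marker MS4A1 had at most 2 reads. The T-cell marker CD3E had 63 to 211 reads and CD3D at most 1. Of the stroma markers, COL1A2 and COL3A1 had 0 reads, but COL1A1 had 9 to 294 reads and rose with WA (log2 fold change 2.78 in MM1S and 2.46 in MM1R), and its part in the results for TSC22D3 was not tested. As RNA came from whole cultures, a smaller share of cells carrying a transcript and less transcript per cell cannot be told apart.

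TSC22D3 was the 1 member that passed the test with WA, and it rose in both lines. The level was 49.8 ± 30.8 CPM in untreated MM1S (SD, n = 3) and 332 ± 205 CPM with WA. In MM1R the level was 97.3 ± 10.2 CPM without and 948 ± 571 CPM with WA (SD, n = 3). The other 4 members passed the test with WA in neither line.

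In the untreated MM1S cultures TSC22D3 stood at 26.9 CPM in passage 16, 84.8 in passage 22 and 37.6 in passage 23. With WA the same passages reached 311, 138 and 546 CPM. The groups did not overlap, but passage 22 had both the highest untreated and the lowest WA level of MM1S. In untreated MM1R the levels were 98.4, 107 and 86.6 CPM for passages 4, 6 and 7, and with WA they were 596, 640.4 and 1607 CPM. Passage 7 had the lowest untreated and by far the highest WA level of MM1R, and the groups were again apart. On the scale of CPM with 0.5 added, the rise within a passage was 11.3-fold, 1.63-fold and 14.3-fold for passages 16, 22 and 23 of MM1S and 6.03-fold, 5.97-fold and 18.5-fold for passages 4, 6 and 7 of MM1R. TSC22D3 was thus higher with WA in 6 of 6 pairs, by amounts that differed widely within each line.

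**Figure D1:**
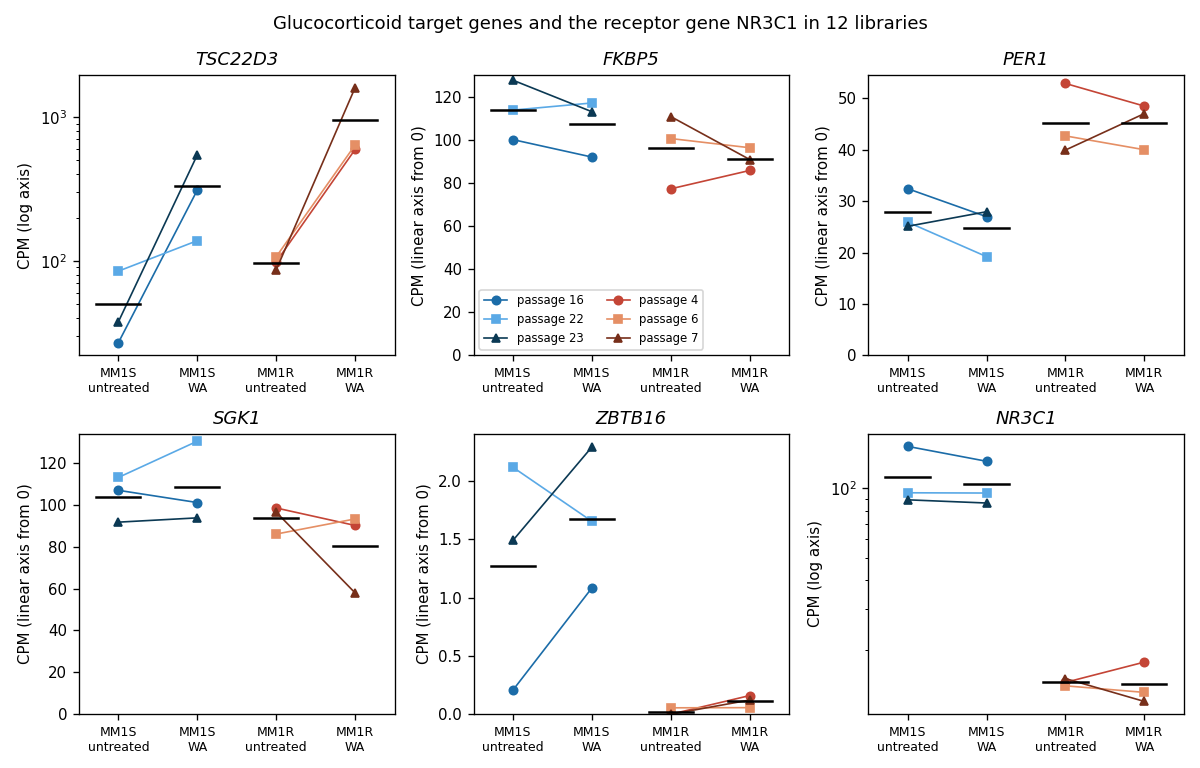
Levels of the 5 GC target genes and of NR3C1 in CPM (vertical axes, logarithmic for TSC22D3 and NR3C1, linear from 0 for the others) in the 4 groups, with 1 point per culture, lines joining cultures of the same passage and black bars for group means. TSC22D3 climbs in every passage, from 26.9 to 107 CPM untreated to 138 to 1607 CPM with WA, and the other members passed no test with WA.

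The fitted log2 fold change of TSC22D3 with WA in MM1S was 2.74 (SE 0.52, 95% interval 1.62 to 3.85), with an adjusted p of 0.00463 by the quasi-likelihood test of edgeR, as for every edgeR adjusted p given here, after Benjamini-Hochberg adjustment over all tested genes. This was a 6.66-fold rise. In MM1R it was 3.28 (SE 0.53, 95% interval 2.15 to 4.42, edgeR adjusted p = 0.00128), a 9.74-fold rise. Among the 12322 genes with a mean of at least 1 CPM, TSC22D3 ranked 42 by the size of its rise in MM1S and 33 in MM1R. With 1 of 5 members called in each line, the share stood beside 10.5% of all tested genes in MM1S and 14.0% in MM1R, or 6.25% and 7.55% when only increases are counted. With passage as a replicate block edgeR called 3399 genes in MM1S and 4094 in MM1R, and still 1 member in each. The size of the estimate moved with single cultures. It was 3.36 without untreated MM1S of passage 22 and 3.73 without both cultures of that passage. In MM1R it was 2.69 without the WA culture of passage 7 and 2.61 without both cultures of that passage (edgeR adjusted p = 0.0272), and the call was kept in each case.

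By mean level the order of groups for TSC22D3 was MM1R with WA, MM1S with WA, untreated MM1R and untreated MM1S, and no neighbours in that order overlapped. The difference between the lines nonetheless missed the limit set for line comparisons, which asked for an adjusted p under 0.01 together with a log2 change of at least 1. Untreated, TSC22D3 was at a log2 fold change of 0.97 in MM1R against MM1S (95% interval -0.10 to 2.03, edgeR adjusted p = 0.238). With WA the log2 fold change was 1.51 (95% interval 0.46 to 2.57, edgeR adjusted p = 0.0618). Leaving out untreated MM1S of passage 22 gave 1.59 for the untreated comparison, and leaving out MM1R with WA of passage 7 gave 0.92 for the comparison with WA. The rise with WA itself was larger in MM1R by 0.55 on the log2 scale, with a 95% interval of -0.93 to 2.03 (edgeR adjusted p = 1.0). That interval holds a difference of several fold in the direction of MM1R, so a like rise in both lines was not shown. The difference turned to -0.08 without untreated MM1S of passage 22 and to -0.04 without MM1R with WA of passage 7. NCBP2L, on the opposite strand, shares 71 exonic bases with TSC22D3 and had 0 reads.

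FKBP5, a target so regular that its transcript is used as a readout of GC exposure, was near the same level in all groups. In the order of passages given above its levels were 100.2, 114 and 128 CPM in untreated MM1S and 92.1, 117 and 113 CPM with WA. In MM1R they were 77.4, 101 and 111 CPM untreated and 85.9, 96.4 and 91.0 CPM with WA. All neighbouring groups overlapped, and the highest culture of the 12 was 1 of untreated MM1S. With WA the log2 fold change was -0.08 in MM1S (95% interval -0.39 to 0.22, edgeR adjusted p = 0.783). It was also -0.08 in MM1R (95% interval -0.39 to 0.23, edgeR adjusted p = 0.779). Rises beyond these upper bounds lie outside the 95% intervals, and each interval still holds a modest fall. Between the lines the log2 fold change was -0.24 without and -0.24 with WA, with edgeR adjusted p of 0.307 and 0.297.

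PER1, whose transcript GCs raise within a short time in many tissues, was higher in all 6 cultures of MM1R than in any of the 6 of MM1S. The levels were 32.4, 25.9 and 25.1 CPM in untreated MM1S and 27.0, 19.2 and 27.9 CPM with WA. MM1R held 52.9, 42.7 and 39.9 CPM untreated and 48.5, 40.0 and 47.0 CPM with WA. The lowest MM1R level, 39.9 CPM, lay above the highest of MM1S, 32.4 CPM, while WA and untreated cultures overlapped within each line. The log2 fold change between untreated MM1R and MM1S was 0.70 (SE 0.16, 95% interval 0.35 to 1.05, edgeR adjusted p = 0.0137). With WA it was 0.87 (SE 0.16, 95% interval 0.52 to 1.22, edgeR adjusted p = 0.00359). PER1 missed the limit of 0.01 untreated and the fold limit in both comparisons. At an adjusted p of 0.05 with no fold limit it passed both, as did 11.9% and 12% of the tested genes. The untreated call was lost when untreated MM1S of passage 22 or 23 was left out, with edgeR adjusted p of up to 0.0693. With WA the log2 fold change was -0.17 in MM1S (95% interval -0.52 to 0.18, edgeR adjusted p = 0.585). In MM1R it was close to 0 (95% interval -0.35 to 0.35, edgeR adjusted p = 1.0).

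SGK1, on the minus strand of chromosome 6 from 134490386 to 134639250 with 14 exons in its canonical transcript, passed no test. Levels were 107, 113 and 91.7 CPM in untreated MM1S and 101, 130.4 and 93.8 CPM with WA. MM1R had 98.5, 86.0 and 96.5 CPM untreated and 90.1, 93.3 and 57.9 CPM with WA. The value of 57.9 CPM, from passage 7, was the lowest of the 12, and it came from the culture with the highest TSC22D3 level. The log2 fold change with WA was 0.06 in MM1S (95% interval -0.31 to 0.43, edgeR adjusted p = 0.878). In MM1R it was -0.22 (95% interval -0.59 to 0.15, edgeR adjusted p = 0.453), and 0.01 without both cultures of passage 7. With WA all 3 MM1R cultures lay below the MM1S cultures, at a log2 fold change of -0.43 (95% interval -0.80 to -0.06, edgeR adjusted p = 0.121).

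ZBTB16, on the plus strand of chromosome 11 from 113929763 to 114127487 with 7 exons in its canonical transcript, was scarcely expressed, and it was the 1 member called between the lines. Passages 16, 22 and 23 of MM1S had 4, 41 and 30 reads untreated and 20, 31 and 42 reads with WA. Passages 4, 6 and 7 of MM1R had 0, 1 and 0 reads untreated and 3, 1 and 2 reads with WA. No MM1R culture exceeded 3 reads, the count taken as the floor per library, so no fold with WA is given for MM1R. The mean in MM1S was 1.27 ± 0.97 CPM untreated and 1.68 ± 0.60 CPM with WA (SD, n = 3). By the MM1S mean against the floor, ZBTB16 was at least 7.70-fold lower in untreated MM1R (edgeR adjusted p = 0.00312). With WA it was at least 9.84-fold lower in MM1R (edgeR adjusted p = 0.00616). Untreated MM1S of passage 16, with 4 reads, was itself near the floor, so these bounds do not cover the spread between cultures. Calls under the limit for line comparisons made up 2.97% of the tested genes untreated and 3.04% with WA, or 1.49% and 1.41% when only lower genes are counted. In MM1S the log2 fold change with WA was 0.39 (SE 0.56, 95% interval -0.80 to 1.59, edgeR adjusted p = 0.73), and it was -0.11 without untreated MM1S of passage 16. Several antisense RNAs are annotated across ZBTB16, and the strand setting of the counting is not given in the sources used here. Floors from reads without molecular identifiers cover counting error only, while the 95% intervals come from the fit over cultures.

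**Figure D2:**
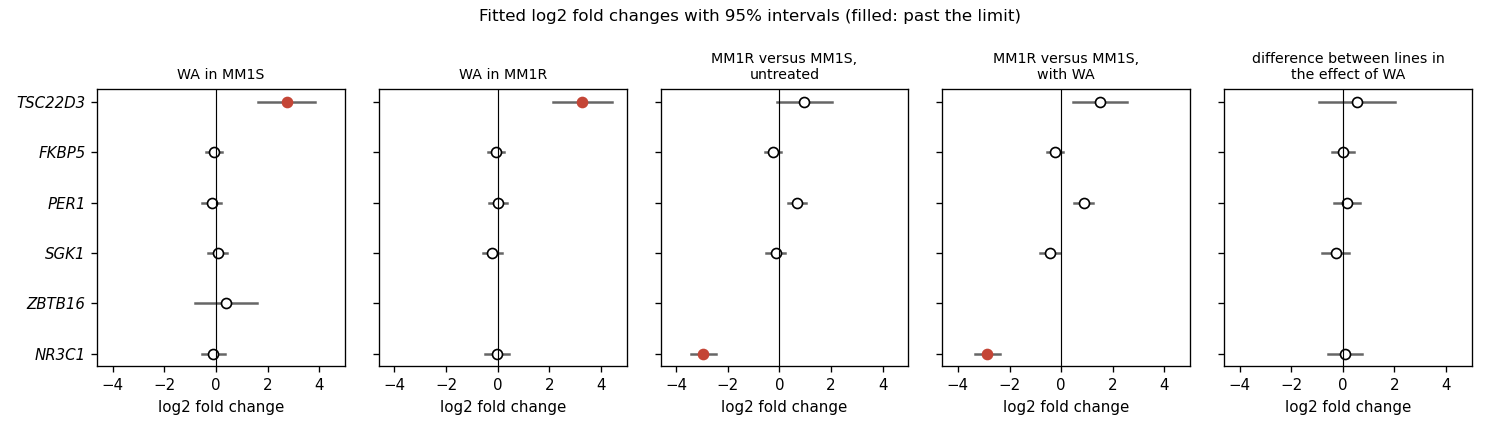
Fitted log2 fold changes (horizontal axis) with 95% intervals for the 5 members and NR3C1 in the 5 comparisons, where filled points passed the limit of the comparison and ZBTB16 is left out where a group is at the floor. TSC22D3 stands at 2.74 and 3.28 with WA, and the intervals of FKBP5, PER1 and SGK1 with WA all include 0.

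The groups of the 2 kinds of comparison can also be read by whether their cultures overlapped. With WA against untreated, only TSC22D3 of the members above the floor was apart in MM1S and in MM1R, beside 30.3% and 33.3% of all tested genes. Between the lines, TSC22D3 and PER1 were higher and ZBTB16 lower in every untreated MM1R culture (32.3% of tested genes did not overlap). With WA the same held, and SGK1 was also lower in every MM1R culture (29.1%). In the test of the difference between lines in the effect of WA, edgeR called none of the 14085 genes (0.0%), DESeq2 called 1, and no member was called. By edgeR 97 genes had an unadjusted p below 0.05. With passage as a replicate block 286 did, and edgeR again called none. Both counts lie below the share of 0.05 of the tested genes that such a limit gives with no difference at all. The main model left passage out, and the fit with the block also gave few small p-values. The test was thus conservative in both fits, and the absence of calls does not show a like response in the lines.

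Across the 12 cultures the members did not move as 1 group. Pearson's r of log2 CPM between TSC22D3 and the others was -0.40 with FKBP5, 0.32 with PER1, -0.08 with ZBTB16 and -0.57 with SGK1. The values describe 12 libraries that share groups, lines and passages. PER1 and ZBTB16 had the most opposed levels (r = -0.88), PER1 being the higher and ZBTB16 the lower in MM1R. Per kilobase of annotated exon, TSC22D3 went from a level like that of FKBP5 and SGK1 in untreated MM1S (10.0, 10.7 and 10.4 CPM per kilobase) to far above them in MM1R with WA (191, 8.57 and 8.08 CPM per kilobase). PER1 stood lower, at 3.97 and 6.45 CPM per kilobase in untreated MM1S and MM1R.

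**Figure D3:**
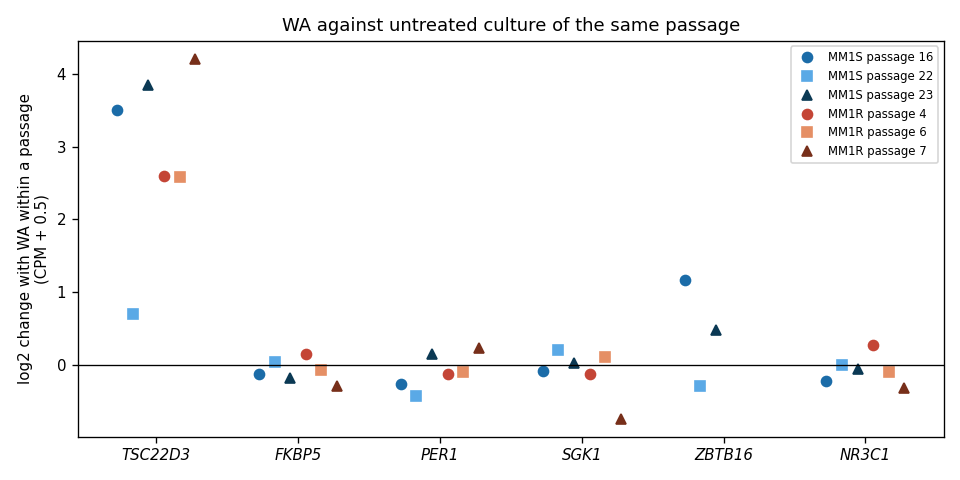
Log2 change with WA within each passage (vertical axis, on CPM with 0.5 added) for the members and NR3C1, with 1 point per passage of MM1S or MM1R. ZBTB16 is drawn for MM1S only, since MM1R was at the floor. All 6 points of TSC22D3 lie above 0, from 0.70 for passage 22 to 4.21 for passage 7, and those of FKBP5, PER1 and NR3C1 lie on both sides of it or near it.

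The 3 genes with the levels most like those of TSC22D3, among genes with a mean of at least 1 CPM, were DDIT4, TNFSF9 and HSPB1. DDIT4, an inhibitor of mTORC1 that both stress and GCs induce, had r = 0.987 over the 12 libraries. TNFSF9, a ligand of the TNF family, had r = 0.979, and HSPB1, a small heat shock protein, had r = 0.966. DDIT4 rose from a mean of 10.6 to 125 CPM with WA in MM1S and from 33.8 to 427 CPM in MM1R. Its untreated MM1S cultures had 9.01, 14.3 and 8.55 CPM and those with WA 110.2, 41.5 and 223 CPM, so passage 22 again had the highest untreated and the lowest WA level. HSPB1 went from 22.4 to 373 CPM in MM1S and from 56.1 to 936 CPM in MM1R, and passage 22 of MM1S had its lowest WA level as well, at 190.2 CPM. TNFSF9 showed the same order at lower levels, with 18.0 CPM in passage 22 of MM1S and 62.1 CPM in passage 7 of MM1R, both with WA. The likeness is a description of levels in the same libraries.

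**Figure D4:**
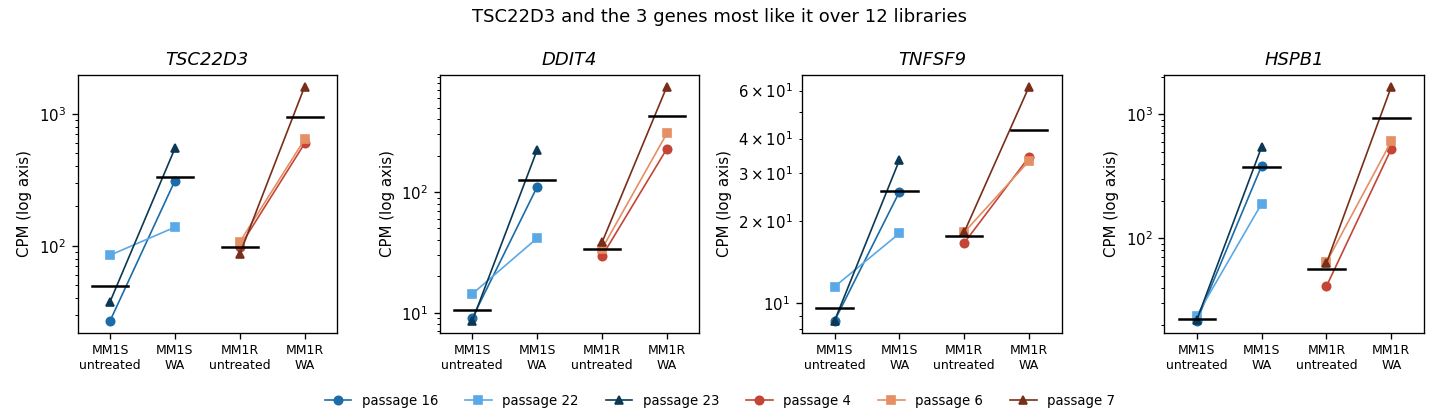
CPM on logarithmic axes of TSC22D3 and of the 3 genes most like it, with 1 point per culture, lines joining a passage and black bars for group means. In all 4 panels passage 22 of MM1S has the lowest and passage 7 of MM1R the highest level with WA.

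The receptor and the proteins that fold it or handle the hormone were read from a list of 12 genes, of which 11 were tested. NR3C1 had 2929, 1849 and 1791 reads in untreated MM1S and 277, 254 and 257 in untreated MM1R. With WA the counts were 2414, 1785 and 1580 in MM1S and 331, 232 and 196 in MM1R. MM1R thus held far less receptor transcript in every culture, while WA and untreated cultures overlapped. The log2 fold change with WA was -0.11 in MM1S (95% interval -0.55 to 0.33) and -0.02 in MM1R (95% interval -0.50 to 0.45), with edgeR adjusted p of 0.81 and 0.97. Against MM1S, NR3C1 was lower in MM1R by a log2 fold change of -2.96 untreated (edgeR adjusted p = 2.15e-06) and -2.87 with WA (edgeR adjusted p = 3.08e-06). TSC22D3 rose in both lines, whose untreated cultures differed 7.76-fold in NR3C1. Whether its rise depends on the receptor was not tested.

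With WA, 5 of the 11 tested genes of this list rose in MM1S and 6 in MM1R, and none fell, beside 6.25% and 7.55% of all tested genes that rose. The median log2 fold change was 1.06 in both lines, against 0.01 over all tested genes. The list was chosen with earlier results of these data known, so these shares are a description only. The 5 that rose in both lines were HSP90AA1 and HSP90AB1, the cytosolic HSP90 proteins, FKBP4 and STIP1, their co-chaperones, and PTGES3, the p23 co-chaperone. HSP90AA1 had log2 fold changes of 3.51 in MM1S and 3.69 in MM1R, and those of HSP90AB1 were 1.47 and 1.45. Those of PTGES3 were 1.06 and 1.13, and those of STIP1 were 1.18 and 1.06. The sixth in MM1R was ABCB1, a drug and steroid exporter, with 21, 11 and 4 reads untreated and 40, 30 and 92 with WA (log2 fold change 2.25, edgeR adjusted p = 0.0148). The adjusted p of ABCB1 rose to 0.0625, 0.0594 and 0.0833 without untreated MM1R of passage 6, untreated MM1R of passage 7 and MM1R with WA of passage 7, and the estimate was 1.57 in the last of these. It was 2.87 when untreated MM1R of passage 4 was left out and 1.18 without both cultures of passage 7 (edgeR adjusted p = 0.204). HSD11B1, which regenerates active cortisol from cortisone, had 1, 0 and 0 reads in untreated MM1S and 11, 22 and 7 in untreated MM1R. By the MM1R mean against the floor, it was at least 4.76-fold higher in untreated MM1R (edgeR adjusted p = 0.00654). With WA its log2 fold change between the lines was 2.98 (edgeR adjusted p = 0.0213), which missed the limit.

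Of the 6 tested relatives of the members, 1 rose and 1 fell with WA in each line, beside 10.5% and 14.0% of all tested genes called in either direction. FKBP4, the co-chaperone that opposes FKBP5 on the receptor, rose with WA in both lines, by a log2 fold change of 1.36 in MM1S (edgeR adjusted p = 0.000285) and 1.35 in MM1R (edgeR adjusted p = 0.000268), while FKBP5 was at -0.08 in each. PER2, the clock partner of PER1, fell in both lines, by a log2 fold change of -0.93 in MM1S (edgeR adjusted p = 0.0213) and -0.94 in MM1R (edgeR adjusted p = 0.0196). It was lower with WA in 6 of 6 pairs, with 597, 365 and 436 reads untreated and 224, 276 and 195 with WA in MM1S. Its adjusted p exceeded 0.05 in 3 of the 6 fits that left out 1 MM1S culture, untreated passage 16 (0.076), WA passage 16 (0.0569) and WA passage 23 (0.0832). The same happened in 3 of the 6 for MM1R, untreated passage 6 (0.0793), WA passage 6 (0.0534) and WA passage 7 (0.0841). TSC22D1, TSC22D2, TSC22D4 and FKBP1A passed in neither line, and their log2 fold changes with WA ranged from -0.31 for TSC22D4 in MM1S to 0.46 for TSC22D1 in MM1R. With passage as a replicate block, TSC22D1 passed in both lines (0.41, edgeR adjusted p = 0.0405 in MM1S and 0.46, edgeR adjusted p = 0.0232 in MM1R). TSC22D4, lower with WA in 6 of 6 pairs, passed in MM1S by DESeq2 with the block (-0.34, DESeq2 adjusted p = 0.0288). PER3, ZBTB32, SGK2 and SGK3 had too few reads to be tested, at most 13 in any culture.

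A further list of 42 genes that GCs induce in blood cells or other tissues, also chosen with earlier results known, had 29 tested members. With WA 5 of them rose and 1 fell in MM1S, and 7 rose and 2 fell in MM1R, while 23 and 20 did not pass, beside 10.5% and 14.0% of all tested genes that were called. The median log2 fold change was 0.08 in MM1S and 0.10 in MM1R, against 0.01 over all tested genes in each. With passage as a replicate block, edgeR called 9 higher and 4 lower in MM1S and 10 higher and 6 lower in MM1R, where the same fit called 24.1% and 29.1% of all tested genes. Between the lines none of the 29 was called untreated or with WA by edgeR, beside 2.97% and 3.04% of all tested genes. Without both cultures of passage 22 in MM1S the list had 4 higher and 1 lower, where 856 of 14401 tested genes were called. Without both of passage 7 in MM1R it had 4 higher and 0 lower, where 639 of 14371 were called.

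DDIT4 had the largest rise among those called, at log2 fold changes of 3.56 in MM1S (edgeR adjusted p = 0.00111) and 3.66 in MM1R (edgeR adjusted p = 0.000695). It was 2.83 without MM1S with WA of passage 23, 4.25 without both cultures of passage 22 and, in MM1R, 3.01 without the WA culture of passage 7. RGS2, a brake on G protein signaling, rose by 1.65 in MM1S and 1.92 in MM1R on the log2 scale. ZFP36, which speeds the decay of cytokine transcripts, rose by 1.02 and 1.26. PIK3R1, a regulatory subunit of PI 3-kinase named after its values were seen, rose by 0.74 and 1.02, and its adjusted p in MM1S was 0.0602 without untreated MM1S of passage 22. All 3 were higher with WA in 6 of 6 pairs.

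BCL6, a transcriptional repressor of the B-cell lineage, was low throughout, with 44, 14 and 18 reads in untreated MM1S and 260, 38 and 180 with WA. In MM1R it had 30, 19 and 26 reads untreated and 79, 105 and 232 with WA. Its log2 fold change was 2.73 in MM1S (edgeR adjusted p = 0.0163) and 2.55 in MM1R (edgeR adjusted p = 0.0182). The MM1S call was lost without untreated passage 22 (edgeR adjusted p = 0.0761), untreated passage 23 (0.0725) and WA passage 16 (0.0585). The MM1R call was lost without untreated passage 6 (edgeR adjusted p = 0.0782), untreated passage 7 (0.0586) and WA passage 7 (0.0852), where the estimate was 1.90. BCL6 in MM1S stood at 3.40 when untreated passage 16 was left out.

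DUSP1 and KLF9 passed in MM1R but not in MM1S, and the difference between lines was called for neither. DUSP1, a phosphatase of MAP kinases, had 516, 328 and 178 reads in untreated MM1R and 1319, 835 and 2419 with WA, a log2 fold change of 2.26 (edgeR adjusted p = 0.00765). In MM1S it had 451, 399 and 233 reads untreated and 933, 307 and 903 with WA, and was thus lower with WA in passage 22. Without both cultures of passage 7 the MM1R value was 1.41 (edgeR adjusted p = 0.117). KLF9, a transcription factor named after its values were seen, had a log2 fold change of 1.15 in MM1R (edgeR adjusted p = 0.0173) and was higher with WA in 6 of 6 pairs. Its adjusted p lay between 0.0505 and 0.0777 without untreated passage 6 or 7 or WA passage 4 or 6 of MM1R. TXNIP, an inhibitor of thioredoxin also named after its values were seen, fell in MM1R by a log2 fold change of -0.78 (edgeR adjusted p = 0.0417), which was lost in 4 of the 6 fits that left out 1 MM1R culture, untreated passages 4 and 6 and WA passages 6 and 7.

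**Figure D5:**
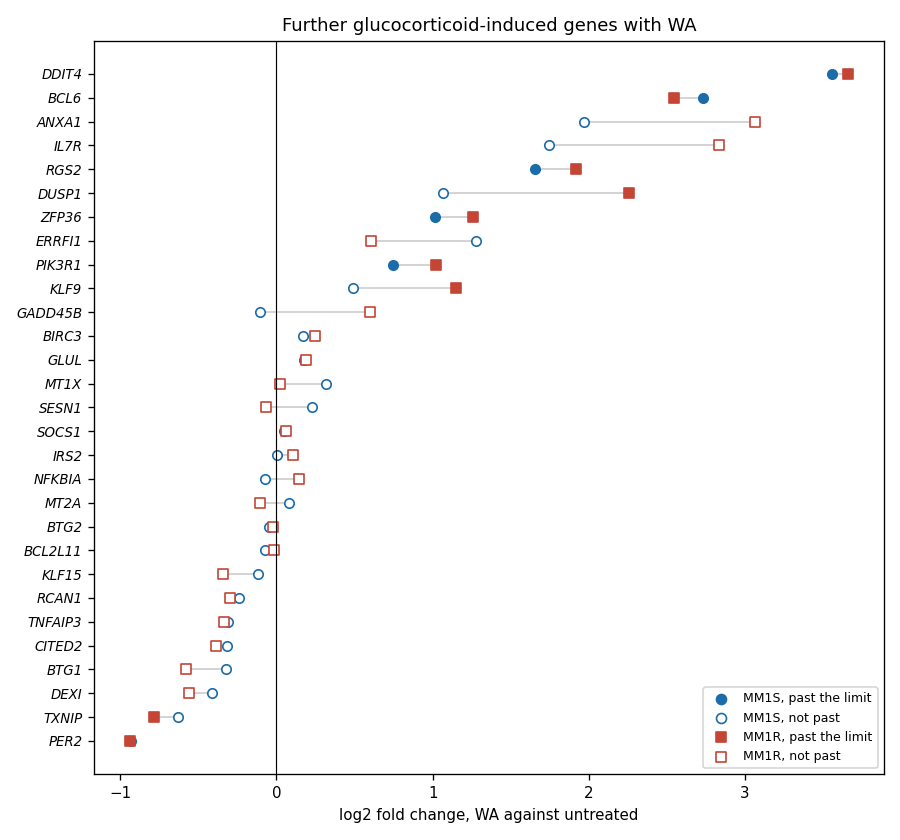
Fitted log2 fold change with WA (horizontal axis) of the 29 tested genes of the further list in MM1S (circles) and MM1R (squares), filled where the adjusted p was below 0.05. DDIT4 is at the top at 3.56 and 3.66 and PER2 at the bottom at -0.93 and -0.94, with most genes near 0.

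Of 12 genes that GCs repress, such as the cytokines IL6 and TNF, 3 had enough reads to be tested, namely ICAM1, MYC and PTGS2. None was called with WA in either line by edgeR, beside 10.5% of all tested genes in MM1S and 14.0% in MM1R. No culture had more than 5 reads of any of the other 9. At an unadjusted edgeR p under 0.05, MYC was the 1 gene of the 3 in either line, with a log2 fold change of -1.06 in MM1S and -1.09 in MM1R. Of the 14085 tested genes, 3503 in MM1S and 3997 in MM1R were under that p. With passage as a replicate block, edgeR called MYC lower in both lines and ICAM1 higher in MM1R. That fit called 24.1% of all tested genes in MM1S and 29.1% in MM1R. ICAM1, an adhesion molecule under control of NF-kB, was higher in MM1R with WA than in MM1S with WA, by a log2 fold change of 3.02 (edgeR adjusted p = 0.00549). Untreated, the log2 fold change was 2.69 (edgeR adjusted p = 0.0108), which missed the limit of 0.01. Its reads with WA were 427, 78 and 114 in MM1S and 1549, 1431 and 1786 in MM1R. Without MM1S with WA of passage 16 it was 4.12, and the adjusted p exceeded 0.01 without each of the 5 other WA cultures (0.0143 to 0.029).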

How the data were processed

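Total RNA of 12 cultures was sequenced as paired-end reads. Per the labels, FastQC 0.11.5, STAR 2.7.3a and the build hg19 were used. The authors deposited raw counts of reads per gene, without normalization. The annotation and strand setting are not given in the sources used here. A second deposited table, counts divided by DESeq2 size factors, was not used. Groups, dose, time and passage came from the labels.

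Counts were tested in R 4.3.3 with edgeR 4.0.16 (filterByExpr with a minimum count of 10, TMM, the quasi-likelihood test on a model of all 12 libraries with group as the only term) and Benjamini-Hochberg adjustment over 14085 genes. WA and the difference between lines were called at an adjusted p of 0.05, and lines at 0.01 with a log2 fold change of 1 in size. The floor was 3 reads per library. The test was checked on simulated counts drawn without an effect of passage, so that check does not cover the likeness of same-passage cultures. Alternatives were DESeq2 1.42.0, its size factors, other filters, the 6 libraries compared, passage as replicate block, and cultures left out. Leaving out both cultures of passage 16, 22 or 7 was chosen after seeing the data.

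Total counts were 17625110 to 19368343, with a median of 18555625. All same-passage pairs of an untreated and a WA culture correlated in their deviations from the group mean, with r of 0.71, 0.25 and 0.44 for passages 16, 22 and 23 and of 0.39, 0.18 and 0.22 for passages 4, 6 and 7, so passage numbers, taken from the labels, were taken to pair cultures in the fits with passage as a block, while the main model left passage out. The highest r with a culture of another passage was 0.31 for passage 22 and 0.37 for passage 23. The members and lists were chosen with earlier results of these data known. Named genes are the members, NR3C1, relatives of the members, up to 5 genes per list and comparison past the limit by size of fold change, and the 3 genes of highest correlation with each member. Promoter sequences are from RefSeq (GRCh38.p14), placed on GRCh37 by exact match, and gene positions are from GENCODE on GRCh37.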

Additional observations from a re-analysis of the deposited data

Results flagged for a closer look

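GADD45B, a stress-response gene of the list of further GC-induced genes, passed the test with WA in neither line, with log2 fold changes of -0.11 in MM1S (edgeR adjusted p = 0.813) and 0.60 in MM1R (edgeR adjusted p = 0.0679). It was picked out because its passages differed in sign between the lines. It was lower with WA in 3 of 3 MM1S pairs (log2 changes of -0.06, -0.20 and -0.07 for passages 16, 22 and 23, on CPM with 0.5 added) and higher in 3 of 3 MM1R pairs (0.63, 0.39 and 0.71 for passages 4, 6 and 7), a difference of 0.689 between the means. The fitted difference was 0.70 (SE 0.29, adjusted p = 1.0 by the quasi-likelihood test of edgeR). With passage as a replicate block, the adjusted p was 0.41 by edgeR and 0.0025 by DESeq2. The gene was singled out after its values were seen.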

How the results depend on the processing

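The call of TSC22D3 with WA held under all alternatives, with log2 fold changes of 2.17 to 3.73 in MM1S and 2.61 to 3.53 in MM1R and adjusted p up to 0.027 and 0.0272. With passage as a replicate block it was 2.74 in MM1S and 3.12 in MM1R by edgeR. FKBP5, PER1 and SGK1 in both lines and ZBTB16 in MM1S were not called with WA under any alternative. With 1 culture left out at a time, genes called were 726 to 1507 (MM1S) and 950 to 2099 (MM1R) with WA, and 268 to 537 (untreated) and 264 to 649 (with WA) between lines.

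Genes called with WA in MM1S and MM1R were 3399 and 4094 with the replicate block in edgeR, 2930 and 3424 in DESeq2, and 556 and 812 at an adjusted p of 0.01. Without both cultures of passage 16, 22 and 7 they were 690, 856 and 639. Between the lines they were 811 and 819 with no filter, 234 and 222 where each library had to hold 10 reads or more, and 1681 and 1690 at an adjusted p of 0.05 with no fold limit, where PER1 passed (0.70 and 0.87). The difference in the effect of WA had 11 genes with no filter, 1 by DESeq2 and 6 by DESeq2 with the block. TSC22D3 passed between the lines with WA (1.496) with no filter, where the fit took the prior degrees of freedom as infinite and the SE of 0.49 became 0.15.

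Values near 0 changed sign. PER1 with WA in MM1R became 0.037 when every library had to hold 10 reads or more and 0.0040 with the block, and NR3C1 there 0.020 under that filter. Without both cultures of passage 7, FKBP5, SGK1, NR3C1, FKBP1A and TSC22D2 in MM1R stood at 0.057, 0.013, 0.14, 0.0058 and -0.026, and SGK1 in MM1S at -0.030 without passage 22. Leaving out 1 culture gave, with WA in MM1S, -0.17 to 0.017 for FKBP5, -0.094 to 0.16 for SGK1, -0.11 to 0.97 for ZBTB16, -0.30 to 0.17 for NR3C1 and -0.081 to 0.063 for FKBP1A. In MM1R it gave -0.22 to 0.031 for FKBP5, -0.083 to 0.13 for PER1, -0.21 to 0.12 for NR3C1 and -0.24 to 0.014 for FKBP1A. For the difference between lines it gave -0.077 to 1.11 for TSC22D3, -0.13 to 0.12 for FKBP5 and -0.20 to 0.28 for NR3C1. The causes were not tested. No paired analysis was possible between the lines because they share no passage number. ZBTB16 is limited by depth, with at most 42 reads in a culture. Its calls between the lines had MM1R at the floor and were not followed through the alternatives. The same holds for the call of HSD11B1 between the untreated lines, where MM1S was at the floor.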

Other observations

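The genes whose levels were most like those of the other members were found by Pearson's r of log2 CPM over the 12 libraries, among genes with a mean of at least 1 CPM. For FKBP5 they were HMGB1 (r = 0.974), HMGB3 (0.968) and CYB5B (0.964), and HMGB1, a chromatin protein, had means of 376 and 371 CPM in MM1S without and with WA and of 313 and 298 CPM in MM1R. For PER1 they were EPB41L4A-AS1 (r = 0.977), TMEM259 (0.973) and CNTNAP1 (0.972), and TMEM259 had means of 350.0 and 333 CPM in MM1S and 604 and 595 CPM in MM1R. For ZBTB16 they were TSPOAP1 (r = 0.971), CLCN4 (0.961) and TUBGCP3 (0.958), and TSPOAP1 had means of 32.5 and 47.4 CPM in MM1S and 4.18 and 5.25 CPM in MM1R. For SGK1 they were ITM2B (r = 0.954), TPM4 (0.922) and ZNF709 (0.894), and TPM4, a tropomyosin, had means of 458 and 551 CPM in MM1S and 366 and 303 CPM in MM1R. The libraries share lines and groups, so these are descriptions of levels.

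By mean level over the 12 libraries TSC22D3 ranked 435 among the 14085 tested genes. FKBP5 stood above 83.8% of them, SGK1 above 82.7%, PER1 above 60.1% and ZBTB16 above 9.58%.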
